A study of Homo sapiens with 6 samples.

Results

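HBEGF, other ligands of the epidermal growth factor (EGF) family and the ErbB receptors were examined as a group of 10 genes, 6 ligands (HBEGF, EREG, AREG, TGFA, BTC and NRG1) and 4 receptors (EGFR, ERBB2, ERBB3 and ERBB4). A gene was followed through the transcript cluster that carries its symbol in the platform annotation, and where 2 clusters did, as for NRG1, through the cluster with the higher mean over all 6 arrays. This gave values for 9 of the 10 genes, all 4 receptors and 5 ligands, out of 21214 clusters with a symbol and 33297 clusters in the value table. AREG was not analysed here, since no cluster carries its symbol in the annotation used. The arrays were Affymetrix Human Gene 1.0 ST, 2 for each of 3 lines. 231BoM-1833 and 231BrM-2a are sublines of MDA-MB-231 that metastasise to bone and to brain, and MDA-MB-231 is the parental, triple-negative human breast cancer line. The labels give the same serum-containing medium for all lines and no treatment besides the sort, in which cells were selected magnetically for absence of CD24 and presence of CD44 and ESA, the product of EPCAM. The sorted cells were the only fraction analysed, so the values do not describe the unsorted lines.

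The EGF-family ligands are made as membrane-anchored precursors that metalloproteases cut loose from the cell surface. HB-EGF, epiregulin, TGF-alpha and betacellulin bind EGFR, and HB-EGF, epiregulin and betacellulin also bind ErbB4, while neuregulin 1 binds ErbB3 and ErbB4. ErbB2 has no known ligand of its own and signals as the partner of the other receptors. Active receptors signal through RAS and the kinase ERK, which induces both feedback inhibitors such as the Sprouty proteins and further ligand, HBEGF and EREG included. HBEGF and EREG are also among genes known from work on metastatic derivatives of MDA-MB-231. The directions reported in that work were not compared with the values here, which should not be read as agreeing with it.

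Values are log2 expression values after RMA, an array summary with background correction, quantile normalisation over all arrays and 1 value per cluster from its probes. Arrays had medians between 6.58 and 6.64, and replicate arrays correlated at r = 0.994 to 0.996 across clusters (3 pairs), a correlation over clusters, which are not independent of each other. VIM, a mesenchymal marker, stood at 12.30 to 12.92 and CDH1, an epithelial one, at 5.19 to 5.96 over the 6 arrays. KRT8, also epithelial, had line means of 11.48 to 12.24, and CDH2, also mesenchymal, of 5.36 to 5.49, both named after their values were seen. EPCAM, a marker of the sort, stood at 8.32 and 7.28 in 231BoM-1833, 8.15 and 8.23 in 231BrM-2a and 8.13 and 7.93 in MDA-MB-231. Replicate 1 of 231BoM-1833 was the higher array of its line in EPCAM, in CD44 (12.17 and 11.82) and in CD24 (6.49 and 5.76), by more than the replicates of the other lines differed. Over the 6 arrays CD44 stood at 11.45 to 12.17 and CD24 at 5.76 to 6.49. PTPRC, the defining leukocyte marker, stood at 3.60 to 3.86. Levels of different genes cannot be set against each other on this array, and whether a dim cluster is expressed is unknown. BTC and ERBB4 lay among the dimmest 33.3% of clusters with a symbol. The tests are moderated tests of limma, fitted to all 6 arrays and adjusted by Benjamini-Hochberg over the 21214 clusters, and a gene was called at an adjusted p under 0.05. Replicates are titled biological, with no word on whether each had its own culture and sort, and the p-values reflect how far replicate arrays differed, some of which may be technical. In bulk RNA, fewer cells expressing a gene and less RNA per cell cannot be told apart.

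HBEGF, which encodes heparin-binding EGF-like growth factor, separated the 3 lines more widely than any other of the 9 genes. It stood at 11.93 and 11.49 in 231BoM-1833, at 9.68 and 9.78 in 231BrM-2a and at 10.28 and 10.38 in MDA-MB-231. Both arrays of the bone-metastatic line were above every other array, both of the brain-metastatic line were below every other array, and no groups overlapped. HBEGF rose 2.60-fold in 231BoM-1833 against MDA-MB-231 (log2 difference 1.38 ± 0.15 SE, adjusted p = 0.000632). It fell by 0.60 ± 0.15 on the log2 scale in 231BrM-2a, a 1.52-fold difference (adjusted p = 0.0203). Dropping either parental array ended that call (adjusted p = 0.0687 without replicate 1 and 0.131 without replicate 2), and so did dropping either 231BrM-2a array (0.114 and 0.075) or testing clusters that have no symbol as well (0.0679). Between the sublines, HBEGF was 3.94-fold lower in 231BrM-2a than in 231BoM-1833 (log2 difference -1.98, 95% confidence interval -2.31 to -1.65, adjusted p = 2.44e-05). The differences of 231BoM-1833 from both other lines held when any single array was left out, with adjusted p no higher than 0.0111. The 231BoM-1833 arrays also differed in the sort markers, and the rise of HBEGF was 1.16 on the log2 scale without replicate 1 and 1.60 without replicate 2. Of 19 immediate early and handling genes, which answer to signalling and to the handling of cells, 5 were called higher and 1 (MYC) lower in 231BoM-1833 (26.3% and 5.26%, beside 8.43% and 7.38% of all clusters). NR4A2 rose 2.91-fold, JUN 2.20-fold, IER3 2.18-fold, ATF3 1.97-fold and IER2 1.83-fold, and the list's mean level was 9.79 to 9.81 over the 231BoM-1833 arrays, against 9.30 to 9.44 over the MDA-MB-231 arrays. HBEGF is itself known as an immediate early gene, and the part of handling in its rise was not tested. In 231BrM-2a, ATF3, FOS and JUN were called higher and IER2, IER3 and MYC lower (15.8% each, beside 10.5% and 8.59% of all clusters), with a mean level of 9.36 to 9.51. Between 231BrM-2a and 231BoM-1833, 0 of the 19 were called higher and 6 lower (31.6% lower, beside 11.0% of all clusters). The part of handling in the HBEGF difference between the sublines was not tested either.

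EREG, which encodes epiregulin, was lower in both sublines. It stood at 8.96 and 8.55 in 231BoM-1833, at 8.79 and 9.30 in 231BrM-2a and at 10.46 and 10.03 in MDA-MB-231. All 4 subline arrays were below both parental arrays, while the arrays of the sublines overlapped each other. EREG fell 2.81-fold in 231BoM-1833 (log2 difference -1.49 ± 0.21 SE, adjusted p = 0.00239). In 231BrM-2a it fell 2.30-fold (-1.20 ± 0.21, adjusted p = 0.00417). These differences share the MDA-MB-231 arrays. Neither call was lost when an array was left out (highest adjusted p = 0.0264 and 0.0397). Between 231BrM-2a and 231BoM-1833 the difference of 0.29 did not pass the test (interval -0.18 to 0.76, adjusted p = 0.379). In 231BoM-1833, then, HBEGF rose and EREG fell on the same arrays.

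**Figure D1:**
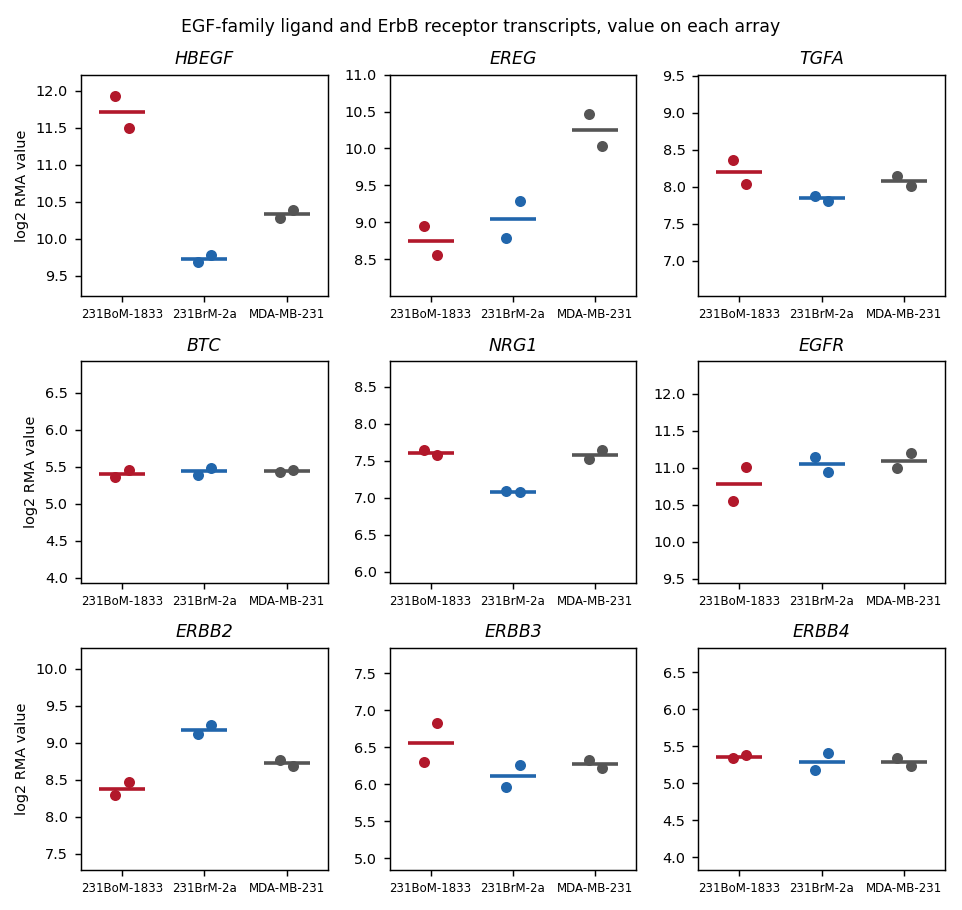
Log2 RMA value (vertical axis, spanning 3 log2 units in every panel) of each ligand and receptor gene on the 6 arrays, grouped by line; points are arrays and horizontal bars are the means of 2 arrays. HBEGF is high in 231BoM-1833 (11.93 and 11.49) and low in 231BrM-2a (9.68 and 9.78), EREG is low in both sublines, and BTC and ERBB4 differ little between lines.

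The promoters of HBEGF and EREG are shown because these genes had the largest differences and went in opposite directions in the bone-metastatic line. They are the 250 bases before the start site in RefSeq (GRCh38.p14), on the gene's strand, for HBEGF at chr5:140346604-140346853 (minus strand) and for EREG at chr4:74364895-74365144 (plus strand). Capitals mark matches to the motifs searched on both strands.
HBEGF: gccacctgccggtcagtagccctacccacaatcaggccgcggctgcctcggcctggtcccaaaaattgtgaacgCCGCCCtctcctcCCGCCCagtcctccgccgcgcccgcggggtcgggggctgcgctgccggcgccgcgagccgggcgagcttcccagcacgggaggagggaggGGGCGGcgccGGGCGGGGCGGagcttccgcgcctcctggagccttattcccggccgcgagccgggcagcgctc
EREG: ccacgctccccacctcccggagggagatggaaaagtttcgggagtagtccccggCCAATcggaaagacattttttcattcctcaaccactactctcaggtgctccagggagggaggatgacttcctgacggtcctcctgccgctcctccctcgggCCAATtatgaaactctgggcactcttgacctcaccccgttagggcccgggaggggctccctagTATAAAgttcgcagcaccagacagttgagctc
In HBEGF the capitals are 5 matches to the Sp1 motif GGGCGG, the last 2 of which share a base. That motif is present in 42.6% of the 35116 promoters of this length in the table and has 0 matches in EREG. In EREG they are 2 matches to the CCAAT box CCAAT, present in 32% of promoters, and 1 match to the TATA box TATAAA, present in 10.7%. HBEGF has 0 matches to either. The AP-1 motif TGANTCA (6.57% of promoters), the CRE motif TGACGTCA (1.65%), the ETS core CCGGAA (14.5%), the EGR motif GCGGGGGCG (4.72%) and the CArG box (1.16%) had 0 matches in both windows, which says only that those letters are not in these 250 bases. The EGR and Sp1 motifs can overlap where both occur. In the RefSeq order of protein-coding genes, EPGN, EREG, AREG and BTC lie next to each other, so EREG has 2 other EGF-family genes as direct neighbours.

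The remaining ligand genes differed less. NRG1, which encodes neuregulin 1, stood at 7.64 and 7.58 in 231BoM-1833, 7.09 and 7.07 in 231BrM-2a and 7.52 and 7.65 in MDA-MB-231. Both brain-subline arrays were below the other 4. NRG1 fell 1.42-fold in 231BrM-2a against MDA-MB-231 (log2 difference -0.50 ± 0.10 SE, adjusted p = 0.01). Leaving out replicate 2 of MDA-MB-231 (0.088), or either of the 231BrM-2a arrays (0.058 and 0.0695), ended this call. It was also 1.44-fold lower in 231BrM-2a than in 231BoM-1833 (adjusted p = 0.00614), a call lost when the mean of both NRG1 clusters was tested (adjusted p = 0.0704). In 231BoM-1833 against MDA-MB-231 the difference was 0.02 (interval -0.21 to 0.26). The other NRG1 cluster stood at 7.35 and 6.56 in 231BoM-1833, 6.68 and 6.62 in 231BrM-2a and 7.28 and 7.53 in MDA-MB-231. Its fall in 231BrM-2a was 1.69-fold (adjusted p = 0.0404), and between the sublines it was not called (adjusted p = 0.37), the 231BoM-1833 arrays lying far apart.

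TGFA, which encodes TGF-alpha, stood at 8.36 and 8.03 in 231BoM-1833, 7.87 and 7.81 in 231BrM-2a and 8.15 and 8.01 in MDA-MB-231. The 231BrM-2a arrays were the lowest, and those of the other lines overlapped. Its differences from the parental line were 0.12 in 231BoM-1833 (interval -0.17 to 0.41) and -0.24 in 231BrM-2a (interval -0.53 to 0.06), with adjusted p = 0.57 and 0.242. In 231BrM-2a against 231BoM-1833 it was -0.35 (adjusted p = 0.0819), and without 231BoM-1833 replicate 2 that difference became -0.51 and passed (adjusted p = 0.0238). BTC, which encodes betacellulin, lay between 5.36 and 5.48 on all 6 arrays, and its 3 differences lay between -0.04 and 0.03. Each of their intervals lay within -0.27 to 0.26. Of the 5 ligands of the family outside the rule (EGF, EPGN, NRG2, NRG3 and NRG4), 0 were called by limma in any comparison, and an unadjusted p under 0.05 was reached by 1, EGF, in 231BoM-1833 against MDA-MB-231. Of all clusters, 15.8%, 19.0% and 23.5% were called in the 3 comparisons. The mean level of these 5 ligands was 4.82 to 4.98 over the MDA-MB-231 arrays, and whether they are expressed is unknown. The largest of their differences from the parental line was that of EGF, at 0.38 in 231BoM-1833 (adjusted p = 0.0917) and 0.23 in 231BrM-2a (adjusted p = 0.273).

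Among the receptors, ERBB2 was the only one called in the fit to all arrays. It stood at 8.29 and 8.47 in 231BoM-1833, 9.12 and 9.25 in 231BrM-2a and 8.77 and 8.69 in MDA-MB-231. The 3 lines did not overlap, with 231BrM-2a highest and 231BoM-1833 lowest, the opposite order to HBEGF. ERBB2 rose 1.36-fold in 231BrM-2a against MDA-MB-231 (log2 difference 0.45 ± 0.11 SE, adjusted p = 0.0235). It missed the threshold when replicate 1 (adjusted p = 0.0742) or 2 (0.142) of MDA-MB-231, or replicate 1 (0.064) or 2 (0.159) of 231BrM-2a, was left out, and when the test covered clusters that have no symbol (0.0634). In 231BoM-1833 the difference of -0.35 did not pass (interval -0.61 to -0.10, adjusted p = 0.0646), though it passed with the dimmest 33.3% of clusters left out (0.0472). ERBB2 was 1.74-fold higher in 231BrM-2a than in 231BoM-1833 (adjusted p = 0.00102), a call kept when each array was left out in turn (highest adjusted p = 0.0136).

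EGFR, the receptor of HB-EGF and epiregulin, was not called in any comparison of all arrays. It stood at 10.55 and 11.01 in 231BoM-1833, 11.14 and 10.95 in 231BrM-2a and 10.99 and 11.20 in MDA-MB-231. The brain-subline and parental arrays overlapped, with a difference of -0.05 (interval -0.42 to 0.31, adjusted p = 0.856). In 231BoM-1833 the difference from MDA-MB-231 was -0.32 (interval -0.68 to 0.05, adjusted p = 0.21), and the outcome turned on which of its arrays was kept. Without 231BoM-1833 replicate 2 the difference was -0.55 and passed (adjusted p = 0.0472), and without replicate 1 it was -0.08. Without replicate 2, EGFR was also called higher in 231BrM-2a than in 231BoM-1833 (a difference of 0.50, adjusted p = 0.0467), compared with 0.27 with all arrays (adjusted p = 0.292).

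ERBB3, the neuregulin receptor that has little kinase activity of its own, stood at 6.31 and 6.82 in 231BoM-1833, 5.96 and 6.27 in 231BrM-2a and 6.33 and 6.23 in MDA-MB-231. Its groups overlapped in part and its adjusted p lay between 0.0978 and 0.561. Without 231BoM-1833 replicate 1 it was called, 0.55 higher in 231BoM-1833 than in MDA-MB-231 (adjusted p = 0.0491) and lower in 231BrM-2a than in 231BoM-1833 (-0.71, adjusted p = 0.0123). ERBB4 lay between 5.17 and 5.40 on all arrays. Its differences were between -0.07 and 0.07, with intervals within -0.33 to 0.33.

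Of the 9 genes, 2 were called in 231BoM-1833 against MDA-MB-231 (HBEGF higher, EREG lower), where 15.8% of all clusters were called, 8.43% higher and 7.38% lower. That split of 1789 higher and 1565 lower became 1997 and 1129 when each array was centred on its median. Against MDA-MB-231, 231BrM-2a had 4 of 9 called (ERBB2 higher, HBEGF, EREG and NRG1 lower), against 19.0% of all clusters, 10.5% higher and 8.59% lower. This count was 2 without replicate 1 of MDA-MB-231, 1 without replicate 2 of MDA-MB-231 or without either 231BrM-2a array, and 2 when the test covered clusters that have no symbol. In 231BrM-2a against 231BoM-1833, 3 of 9 were called (ERBB2 higher, HBEGF and NRG1 lower), against 23.5% of all clusters, 12.5% higher and 11.0% lower. That count was 2 when the mean of a symbol's clusters was tested, the call of NRG1 being lost. It was 5 without replicate 2 of 231BoM-1833, TGFA and EGFR being called as well. The median difference of the 9 genes was 0.02, -0.16 and -0.07 in these comparisons, beside -0.05, -0.05 and 0.01 over all clusters. With 9 genes, shares of 22.2%, 44.4% and 33.3% are counts of a few genes and not a property of the family. The shares of all clusters, here and beside the lists, include dim clusters. With the dimmest 33.3% left out, 3461, 4074 and 4826 of 14143 clusters were called in the 3 comparisons, larger shares than over all clusters. An exact permutation test of 2 arrays against 2 cannot give a two-sided p below 0.333, so single genes were tested only within the fit over all clusters.

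**Figure D2:**
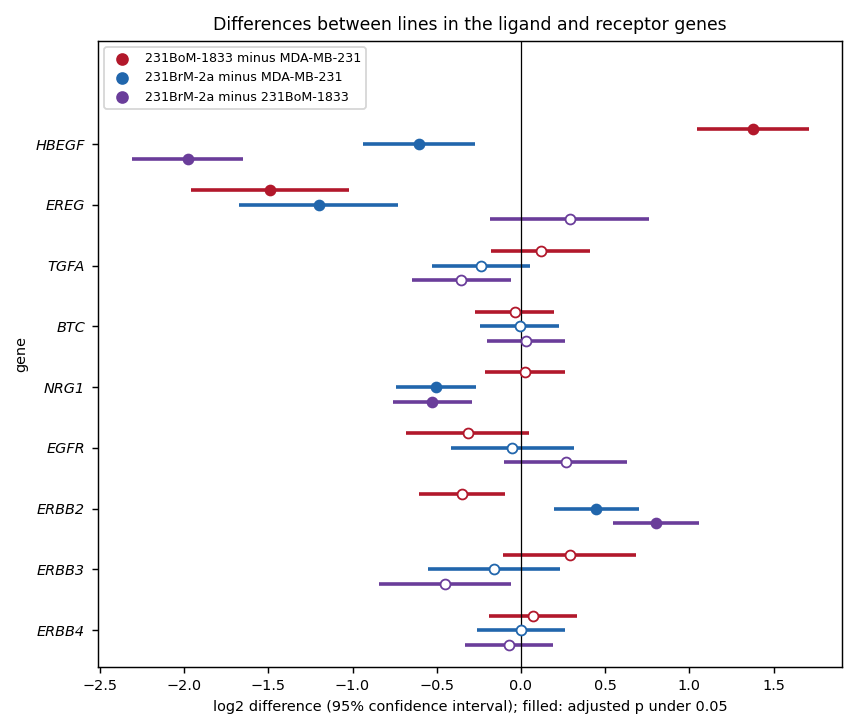
Log2 difference between lines (horizontal axis) with its 95% confidence interval for each ligand and receptor gene, in 3 comparisons; filled points had an adjusted p under 0.05. HBEGF has intervals clear of 0 in all 3 comparisons, and EREG has them against the parental line in both sublines.

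Genes that ERK signalling is known to induce were lower in the brain-metastatic line, in which HBEGF was also lowest. Of 20 such genes, all measured, 18 were called lower and 0 higher in 231BrM-2a against MDA-MB-231, beside 8.59% of all clusters called lower, and their median difference was -0.74. The list was chosen with earlier results of these data known, so its counts, in every comparison, are a description and not independent support. The 5 with the largest differences encode feedback inhibitors of the pathway. SPRY2, a Sprouty inhibitor of receptor signalling, stood at 7.39 and 7.45 in 231BrM-2a, against 9.07 and 9.15 in MDA-MB-231, and fell 3.23-fold (adjusted p = 1.79e-05). SPRY4, of the same family, fell 3.12-fold (adjusted p = 0.000101). The phosphatase genes DUSP4 (3.39-fold), DUSP6 (3.07-fold) and DUSP5 (2.82-fold), whose products act on ERK and related kinases, fell as well (adjusted p between 2.73e-05 and 0.000121). The other genes called lower had log2 differences of -1.41 (PHLDA1) to -0.39 (ETV5). The 2 genes not called were EGR1 (-0.15, adjusted p = 0.648) and EGR3 (0.03, adjusted p = 0.89). Between 13 and 18 of the 20 were called lower when single arrays were left out. Of 7 fibroblast markers, COL1A1, DCN, LUM and PDGFRB were called higher and 0 lower in this line (57.1% higher, beside 10.5% of all clusters), where the list's mean level was 6.36 to 6.47, against 5.92 to 5.95 in MDA-MB-231. COL1A2 (mean 6.36, against 6.53 in MDA-MB-231), COL3A1 (6.29, against 6.45) and PDGFRA (4.93, against 4.87) were not called. The part of the fibroblast markers in the differences of 231BrM-2a, those of HBEGF, ERBB2 and NRG1 included, was not tested. In 231BoM-1833, 0 of the 7 were higher and DCN was lower (mean level 5.78 to 5.82). EGR3 and the fibroblast markers are named here after their values were seen.

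In 231BoM-1833, in which HBEGF was highest, the same genes divided. Of the 20, 7 were called higher and 3 lower against MDA-MB-231, where 8.43% and 7.38% of all clusters were, and the median difference was 0.23. IER3, an immediate early gene, rose 2.18-fold (adjusted p = 0.000987). SPRY2 stood at 9.94 and 9.92 and rose 1.76-fold (adjusted p = 0.00138). EPHA4, which encodes an ephrin receptor, rose 1.67-fold, PHLDA1 1.60-fold and DUSP5 1.52-fold (adjusted p between 0.00422 and 0.0168). The 3 that fell were MYC (-0.54), SPRY4 (-0.52) and ETV4 (-0.46), and LIF and PHLDA2 complete the 7 that rose. ETV4, ETV5, LIF and PHLDA2 are named here after their values were seen. Without replicate 1 of the parental line 4 were higher and 1 lower, without its replicate 2 they were 3 and 0, and with the unnamed clusters in the test 4 and 1. The count lower was also 1 without replicate 2 of 231BoM-1833. In the direct comparison of 231BrM-2a with 231BoM-1833, 16 of the 20 were called lower, beside 11.0% of all clusters, and 0 higher, with a median difference of -0.90. SPRY2 had the largest of these, 5.69-fold (adjusted p = 8.14e-07), and PHLDA1, DUSP4, DUSP5 and IER3 differed 4.07-fold to 4.29-fold. These comparisons share arrays, and ERK activity itself was not measured. The ERK-response list shares 4 genes with the immediate early and handling genes, EGR1, EGR3, IER3 and MYC. The part of handling in the ERK-response differences was not tested.

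**Figure D3:**
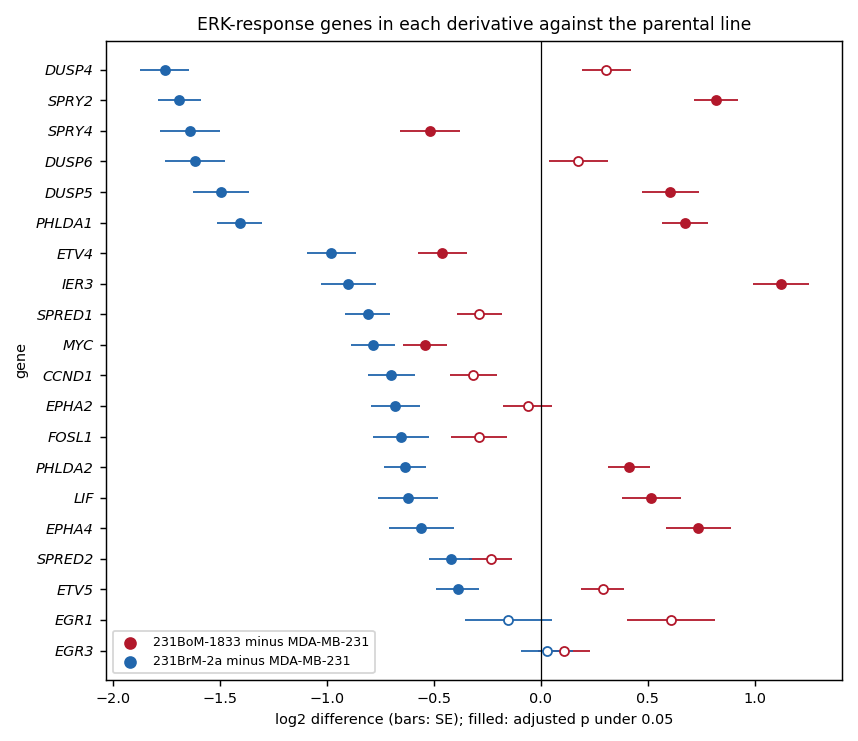
Log2 difference (horizontal axis, bars are SE) of 20 ERK-response genes in 231BoM-1833 and in 231BrM-2a, each against MDA-MB-231; filled points had an adjusted p under 0.05. In 231BrM-2a 18 genes are called lower, while in 231BoM-1833 7 are called higher and 3 lower.

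Inhibitors of receptor signalling and receptor down-regulators were called in both directions. The list shares 4 genes with the ERK-response genes, SPRY2, SPRY4, SPRED1 and SPRED2. All 4 were among the 6 called lower in 231BrM-2a against MDA-MB-231, so that count is largely not separate from the ERK-response count. Of 21 listed genes 20 were measured, and 2 were called higher and 6 lower in 231BrM-2a against MDA-MB-231 (median -0.09), or 10% and 30% beside 10.5% and 8.59% of all clusters, so that the share called higher is near that of all clusters. ERRFI1, whose product binds and blocks the EGFR kinase, stood at 11.63 and 11.73 in 231BrM-2a, against 12.81 and 12.85 in MDA-MB-231, and fell 2.22-fold (adjusted p = 0.000143). SPRED1 fell 1.75-fold and SPRY1 1.49-fold (adjusted p = 0.00108 and 0.0301). The 2 genes called higher, looked up after the count was known, were CBLB (1.48-fold, adjusted p = 0.00922) and LRIG2 (1.42-fold, 0.0168). They became 1 without replicate 2 of MDA-MB-231 or replicate 1 of 231BrM-2a, and 0 without replicate 1 of MDA-MB-231 or replicate 2 of 231BrM-2a. In 231BoM-1833, 4 of 20 were called higher and 1, SPRY4, lower (median -0.06), or 20% and 5% beside 8.43% and 7.38% of all clusters. Without replicate 2 of the parental line 2 were higher. The call of SPRY4 was not stable: the count lower was 0 without any single array other than replicate 1 of 231BoM-1833, and 2 without that array. It was also 0 with median-centred arrays, with only the lines compared and with the unnamed clusters in the test. Besides SPRY2, the genes called higher were CBLB and CBL, ubiquitin ligases that send active receptors to degradation (1.74-fold and 1.40-fold), and LRIG1, a transmembrane inhibitor of ErbB receptors (1.59-fold), with adjusted p between 0.00272 and 0.0257. ERRFI1 stood at 12.90 and 12.77 there. Set against 231BoM-1833, 3 were called higher and 8 lower in 231BrM-2a (15% and 40%, beside 12.5% and 11.0% of all clusters), which became 1 and 5 without replicate 2 of 231BrM-2a, 1 and 6 without its replicate 1, and 1 and 6 without replicate 2 of 231BoM-1833. LRIG1 was 2.06-fold lower in 231BrM-2a (adjusted p = 0.000483) while LRIG2 was 1.49-fold higher (0.00682).

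Genes of ligand shedding differed by line and by enzyme. Of 13 measured, 3 were called higher and 1 lower in 231BrM-2a against MDA-MB-231 (median 0.01), or 23.1% and 7.69% beside 10.5% and 8.59% of all clusters. The 3 became 2 without any 1 of the 4 arrays compared, under a replicate block and with the unnamed clusters in the test, and the 1 became 2 without either 231BoM-1833 array. ADAM10, known from mouse cells as the main sheddase of EGF and betacellulin, stood at 12.11 and 12.22 in 231BrM-2a, against 11.01 and 10.98 in MDA-MB-231, and rose 2.25-fold (adjusted p = 0.000127). ADAM19, which can cut neuregulin, rose 1.69-fold (adjusted p = 0.00233), and the rhomboid protease gene RHBDL2 rose 1.39-fold with an adjusted p of 0.0499. ADAM8 fell 2.10-fold (adjusted p = 0.000884). In 231BoM-1833, 4 of 13 were called higher and 0 lower (median 0.205), or 30.8% higher beside 8.43% of all clusters. TIMP3, an inhibitor of ADAM17, stood at 9.15 and 8.56, against 7.66 and 7.82 in MDA-MB-231, and rose 2.16-fold (adjusted p = 0.0042). RHBDL2 rose 2.09-fold, ADAM19 1.47-fold and NRDC, whose product binds HB-EGF and promotes its shedding, 1.35-fold (adjusted p between 0.00218 and 0.0241). The 4 calls became 2 without replicate 2 of MDA-MB-231 or replicate 2 of 231BoM-1833. ADAM17, known from mouse cells as the main sheddase of HB-EGF and TGF-alpha, is given here outside the rule for named genes, after its values were seen. It stood at 10.47 and 10.64 in 231BoM-1833, 10.51 and 10.28 in 231BrM-2a and 10.26 and 10.37 in MDA-MB-231, with differences from the parental line of 0.24 (interval -0.04 to 0.52) and 0.08 (interval -0.19 to 0.36) that did not pass. Compared with 231BoM-1833, 231BrM-2a had 1 of 13 called higher, ADAM10 (2.03-fold), and 4 lower, TIMP3 (2.89-fold), ADAM8 (2.87-fold), RHBDL2 (1.50-fold) and NRDC (1.41-fold). These are 7.69% and 30.8% of the list, beside 12.5% and 11.0% of all clusters.

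**Figure D4:**
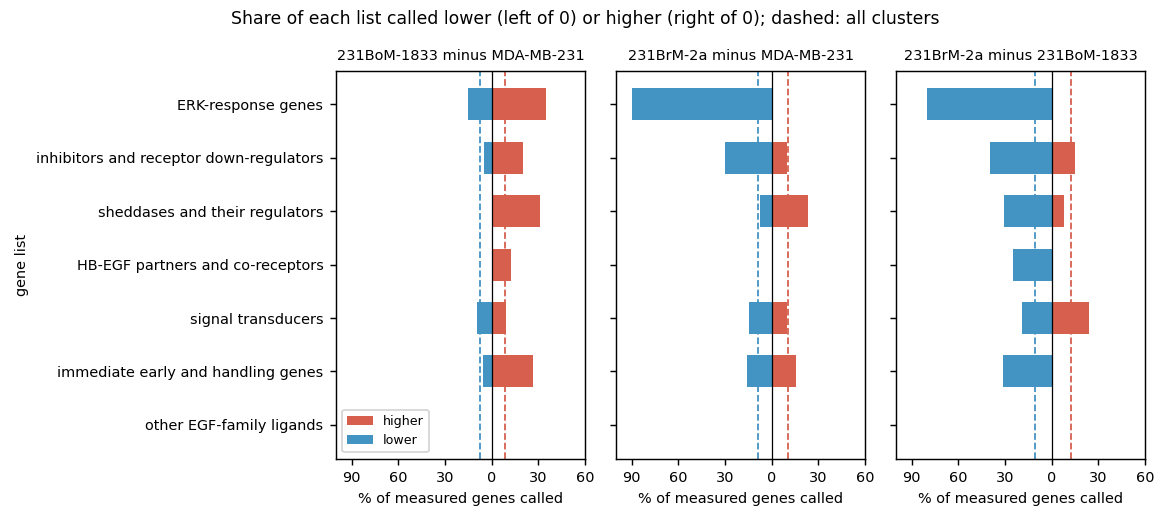
Percentage of the measured genes of 7 lists called lower (bars left of 0) or higher (bars right of 0) in 3 comparisons, with dashed lines at the percentage of all clusters called in that direction. Among ERK-response genes, 90% are called lower in 231BrM-2a relative to MDA-MB-231, beside 8.59% of all clusters. The lists were chosen with earlier results of these data known.

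The genes most like HBEGF in profile were sought among 1096 genes whose line means spanned at least 1 log2 unit. Over the 6 arrays, which fall into 3 lines and so are not 6 independent points, the highest Pearson correlations were those of TMLHE (0.996), FLT1 (0.995), NRIP1 (0.995), BMAL2 (0.993) and MOSPD1 (0.993). TMLHE encodes an enzyme of carnitine synthesis, FLT1 a receptor of vascular endothelial growth factor, NRIP1 a nuclear receptor corepressor and BMAL2 a clock-related transcription factor. TMLHE stood at 6.39 and 5.76 in 231BoM-1833, 3.78 and 3.73 in 231BrM-2a and 4.38 and 4.34 in MDA-MB-231. TMLHE and FLT1 lay among the dimmest 33.3% of clusters. The 5 genes were chosen for this profile, so their differences between lines are a description and carry no test.

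**Figure D5:**
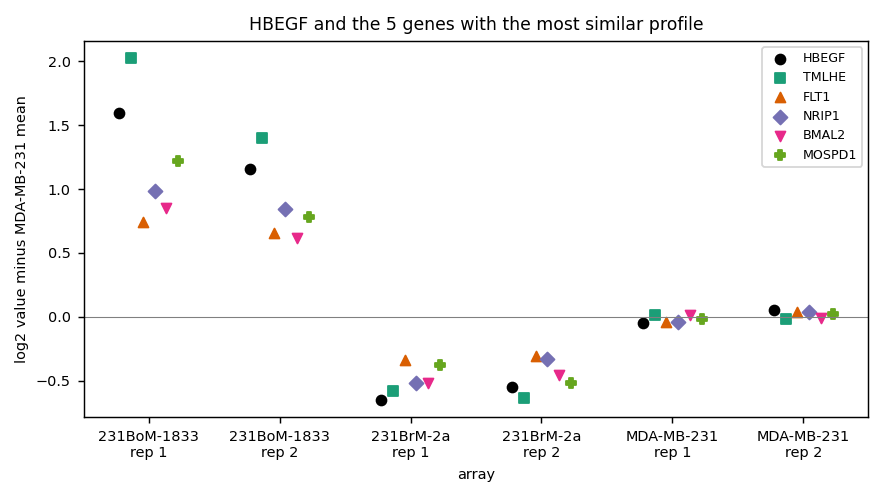
Log2 value minus the gene's MDA-MB-231 mean (vertical axis) on each of the 6 arrays for HBEGF and the 5 genes with the highest correlation to it. All 6 genes are above 0 on both 231BoM-1833 arrays and below 0 on both 231BrM-2a arrays, and TMLHE has a wider span than HBEGF.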

How the data were processed

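RNA of sorted cells was measured on 6 arrays, 2 per line, grouped by the cell line in the labels. The deposited values are log2 intensities summarised by the authors with the RMA method of Expression Console (Affymetrix), as the series design text and the submitters' processing notes state. The software version and genome build are not given in the sources used here. Quantile normalisation removes any overall shift between lines. Scanner output was not used here, and 6 arrays limit the precision.

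A mean per line was fitted with limma (version 3.58.1, R 4.3.3; lmFit, eBayes, 6.06 prior and 3 residual degrees of freedom), after a check on simulated data. Symbols came from GEO's platform annotation, under which 19460 clusters have 1 symbol, 1754 several and 12083 none. No gene was named from a cluster with several symbols. The text names all members, up to 5 called genes of each pathway list per comparison by size of difference (the largest where none passed), and the 5 genes most correlated with HBEGF. Other genes whose differences are given were named after their values were seen. Members and lists were chosen with earlier results of these data known. RefSeq promoter entries (GRCh38.p14) matched 8 of the 10 genes. Alternatives were quantile normalisation again, median-centring, leaving out the dimmest 33.3% of clusters, adding clusters that have no symbol, only the 2 lines compared, trend and robust variance, the mean of a symbol's clusters, a replicate block and leaving out each array. A crossed block, and all alternatives for the list counts, were added after seeing the data.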

Additional observations from a re-analysis of the deposited data

Results flagged for a closer look

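For 3 genes the differences of the sublines from MDA-MB-231 were themselves different, tested as the contrast of 231BrM-2a with 231BoM-1833 in the fit to all arrays. The log2 difference of HBEGF, 231BrM-2a minus 231BoM-1833, was -1.98 (adjusted p = 2.44e-05), with 231BoM-1833 above and 231BrM-2a below the parental line. NRG1 differed by -0.53 (adjusted p = 0.00614), and ERBB2 by 0.80 (adjusted p = 0.00102). On the clusters followed, both 231BrM-2a arrays lay on the same side of both 231BoM-1833 arrays in each of these genes. On the other NRG1 cluster the sublines overlapped and were not called different (adjusted p = 0.37). The mean of both NRG1 clusters was not called between the sublines either (adjusted p = 0.0704). Groups of 2 arrays are too small to look for single arrays that stand apart.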

How the results depend on the processing

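The calls of HBEGF in 231BoM-1833 against MDA-MB-231 and in 231BrM-2a against 231BoM-1833, of EREG against MDA-MB-231 in both sublines, and of ERBB2 between the sublines held under all 14 alternatives run. Of all comparisons of single members with their alternatives, 333 kept direction and side of the threshold, 14 lost the call, 6 gained it and 19 turned direction, and every turned value was uncalled. The cause of these changes was not tested. These counts are not of independent checks. Adding or dropping clusters, fitting only the 2 lines, trend and robust variance and the replicate block left the differences unchanged and moved only the adjusted p. Leaving out an array of the third line gives the same fit as using only the 2 lines compared, so that fit is counted more than once. When clusters that have no symbol were tested as well, 2220 clusters were called in 231BoM-1833 against MDA-MB-231 and 2 members in 231BrM-2a against MDA-MB-231. Leaving out single arrays gave 932 to 2936 clusters in 231BoM-1833, 1764 to 4751 in 231BrM-2a, each against MDA-MB-231, and 3001 to 4750 in 231BrM-2a against 231BoM-1833, and gave 2 to 3, 1 to 4 and 3 to 5 called members. A line left with 1 array was assumed to vary like the others. In 231BoM-1833 against MDA-MB-231, BTC turned to 0.0019 with median-centred arrays and NRG1 to -0.21 as the mean of its clusters. In 231BrM-2a against MDA-MB-231, BTC turned to 0.034 with quantile normalisation again and 0.0029 with median-centring, and ERBB4 to 0.038 and 0.0084. Without single arrays, ranges that crossed 0 were, in 231BoM-1833 against MDA-MB-231, TGFA -0.043 to 0.28, BTC -0.082 to 0.0071 and NRG1 -0.043 to 0.089. In 231BrM-2a against MDA-MB-231 they were BTC -0.053 to 0.040, EGFR -0.16 to 0.052 and ERBB4 -0.12 to 0.11, and against 231BoM-1833, BTC -0.016 to 0.077 and ERBB4 -0.19 to 0.042. Same-numbered arrays deviated with correlations of 0.0362 (231BoM-1833 and MDA-MB-231), -0.162 (231BrM-2a and MDA-MB-231) and -0.165 (231BrM-2a and 231BoM-1833), so the numbers were not read as pairs. The replicate block gave 2724, 3535 and 4564 clusters in the 3 comparisons and changed no member's call. With the numbers of 231BrM-2a crossed, 4468 clusters were called against MDA-MB-231 and 5387 against 231BoM-1833. Detection over background is unknown, which limits what can be read from the dim clusters of BTC and ERBB4.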

Other observations

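Signal transducers below the receptors were measured in 21 of 30 listed genes. In 231BrM-2a against MDA-MB-231, 2 rose (9.52%, beside 10.5% of all clusters called higher), ARAF, a RAF kinase gene (1.50-fold, adjusted p = 0.00751), and the adaptor gene SHC1 (1.31-fold, 0.0401), and 3 fell (14.3%, beside 8.59%), PTPN11, a phosphatase that activates RAS signalling (1.60-fold, 0.0037), the docking protein gene GAB1 (1.34-fold, 0.0172) and PIK3R1, a regulatory subunit of phosphoinositide 3-kinase (1.33-fold, 0.0374). In 231BoM-1833, PIK3R1 (1.48-fold) and PIK3CB (1.30-fold) rose and HRAS (1.36-fold) and AKT1 (1.35-fold) fell, with adjusted p between 0.0127 and 0.0384. These are 9.52% in each direction, near the 8.43% and 7.38% of all clusters. Between 231BrM-2a and 231BoM-1833, 5 were called higher and 4 lower (23.8% and 19%, beside 12.5% and 11.0%), and PIK3R1 was 1.97-fold lower (adjusted p = 0.000372). The median difference was 0.01 in 231BrM-2a and -0.09 in 231BoM-1833 against MDA-MB-231.

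Of 8 measured partners and co-receptors of HB-EGF, 0 were called by limma in 231BrM-2a against MDA-MB-231 (3 at an unadjusted p under 0.05), and CD82, a tetraspanin, was called higher in 231BoM-1833 (1.28-fold, adjusted p = 0.0445), or 12.5% beside 8.43% of all clusters. Between 231BrM-2a and 231BoM-1833, CD82 (-0.47, adjusted p = 0.00934) and CD44 (-0.54, adjusted p = 0.014) were lower, or 25% beside 11.0%. The counts of marker lists that follow stand beside 10.5% of all clusters called higher and 8.59% lower in 231BrM-2a, and 8.43% and 7.38% in 231BoM-1833, each against MDA-MB-231. Epithelial markers gave 3 higher (KRT8, CLDN4 and ELF3, 1.43-fold to 1.69-fold) and 1 lower (KRT19, 3.03-fold) of 13 in 231BrM-2a, or 23.1% and 7.69%, and 1 and 1 in 231BoM-1833, or 7.69% each. Mesenchymal markers gave 1 and 2 of 8 in 231BrM-2a, or 12.5% and 25%. In 231BoM-1833 they gave 2 higher, SPARC (9.25-fold) and ZEB2 (1.76-fold), and 1 lower, ZEB1 (1.36-fold), while the median of the list was -0.18. Leukocyte markers gave 0 and 2 of 9 in 231BrM-2a, or 0% and 22.2%, and 1 and 1 in 231BoM-1833, or 11.1% each. Endothelial and red cell markers gave 0 and 2 of 6 in 231BrM-2a, or 0% and 33.3%, and 1 and 0 in 231BoM-1833, or 16.7% and 0%. Of the 3 sort markers, 0 were called by limma in 231BrM-2a (1 at an unadjusted p under 0.05) or in 231BoM-1833 (0). The epithelial and mesenchymal markers are named here after their values were seen.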
